A study of Mus musculus with 8 samples.

Results

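The 5hmC landscape described here is the set of genomic regions in which a 5-hydroxymethylcytosine (5hmC) peak was found in all 4 pull-down libraries of a mouse germinal center B cell study. Peaks of the 4 deposited lists that touched or overlapped were merged on the 19 autosomes into 341091 union regions, and 205439 of them (60.23%) were overlapped by at least 1 bp of a peak in both TET2 knockout (KO) and both wild-type (WT) libraries. The cells were germinal center B cells from the spleens of C57BL/6 mice, either TET2 KO or WT, and the libraries came from DNA immunoprecipitated for 5hmC and sequenced (hMeDIP-seq). Each genotype had 2 such libraries, numbered as replicates 2 and 3 and called KO2, KO3, WT2 and WT3 here, and an input library beside each of them that was not used. The labels do not state the knockout allele, any Cre driver, the age or sex of the mice, or whether libraries with the same genotype are from different mice, so each p-value measures the spread among 4 libraries, which may be technical.

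5hmC is made from 5-methylcytosine by the TET dioxygenases, of which TET2 is a prominent member in blood cells, and is an intermediate on the way to removal of the methyl mark. In many tissues it is found over the bodies of active genes and at distal regulatory elements, and is scarce at unmethylated CpG-rich promoters. Germinal centers are the sites in lymphoid organs where B cells proliferate after antigen and diversify their antibodies, and TET2 is recurrently mutated in lymphomas. Immunoprecipitation reads how much 5hmC-bearing DNA is recovered from a stretch of the genome and does not resolve single cytosines.

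Promoter windows of 6 B cell genes from the RefSeq table of GRCm38.p6 are printed first, because they show the CpG sites, the substrate of the mark, in windows with shared regions and in windows with none. Each window runs 5′ to 3′ along the gene, from 250 bases before an annotated start to 50 after it, in lower case with every CG in capitals. CG reads the same on both strands, and 95.6% of all 20085 promoter windows of autosomal genes hold at least 1. The first 4 were covered most by shared regions among eligible genes of the B cell lists. They belong to Irf8, a transcription factor of B and myeloid cells (chr8:120738389-120738688, plus strand, 8 CG), E2f2, a cell cycle transcription factor (chr4:136180532-136180831, plus strand, 7 CG), Tnfrsf13b, which encodes the BAFF and APRIL receptor TACI (chr11:61126505-61126804, plus strand, 8 CG), and Cd22, an inhibitory co-receptor of B cells (chr7:30878979-30879278, minus strand, 4 CG). The last 2 are windows without a shared region in the 2 genes of these lists with most shared bases among such genes, Foxp1 (chr6:99028249-99028548, minus strand, 44 CG) and Bach2 (chr4:32417185-32417484, plus strand, 7 CG).
Irf8: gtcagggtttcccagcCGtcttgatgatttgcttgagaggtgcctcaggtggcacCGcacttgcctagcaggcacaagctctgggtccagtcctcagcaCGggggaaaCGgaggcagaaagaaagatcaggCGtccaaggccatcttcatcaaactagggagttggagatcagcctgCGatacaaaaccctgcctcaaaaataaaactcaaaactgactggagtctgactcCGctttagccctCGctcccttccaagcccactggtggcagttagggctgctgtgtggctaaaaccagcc
E2f2: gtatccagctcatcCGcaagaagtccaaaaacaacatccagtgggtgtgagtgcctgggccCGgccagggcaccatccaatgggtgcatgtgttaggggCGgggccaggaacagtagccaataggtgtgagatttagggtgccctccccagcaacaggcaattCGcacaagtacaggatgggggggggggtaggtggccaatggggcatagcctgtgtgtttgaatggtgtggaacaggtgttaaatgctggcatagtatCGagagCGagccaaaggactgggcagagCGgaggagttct
Tnfrsf13b: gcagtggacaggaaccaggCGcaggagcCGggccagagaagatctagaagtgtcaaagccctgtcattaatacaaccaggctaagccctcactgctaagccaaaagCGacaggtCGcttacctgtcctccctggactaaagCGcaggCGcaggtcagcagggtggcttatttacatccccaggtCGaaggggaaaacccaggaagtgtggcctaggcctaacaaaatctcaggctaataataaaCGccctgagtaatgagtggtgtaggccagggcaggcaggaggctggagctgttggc
Cd22: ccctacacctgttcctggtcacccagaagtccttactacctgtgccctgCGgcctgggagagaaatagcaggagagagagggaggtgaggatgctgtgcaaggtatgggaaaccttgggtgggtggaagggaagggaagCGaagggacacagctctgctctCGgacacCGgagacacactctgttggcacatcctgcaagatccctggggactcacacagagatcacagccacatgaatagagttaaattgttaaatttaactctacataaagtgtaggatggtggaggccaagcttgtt
Foxp1: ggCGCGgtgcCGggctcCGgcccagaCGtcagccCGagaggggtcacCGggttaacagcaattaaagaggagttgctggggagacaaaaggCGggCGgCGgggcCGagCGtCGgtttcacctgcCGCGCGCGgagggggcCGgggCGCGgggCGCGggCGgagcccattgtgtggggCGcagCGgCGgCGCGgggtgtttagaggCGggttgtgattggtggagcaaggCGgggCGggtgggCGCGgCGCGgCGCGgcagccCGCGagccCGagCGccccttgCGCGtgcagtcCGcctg
Bach2: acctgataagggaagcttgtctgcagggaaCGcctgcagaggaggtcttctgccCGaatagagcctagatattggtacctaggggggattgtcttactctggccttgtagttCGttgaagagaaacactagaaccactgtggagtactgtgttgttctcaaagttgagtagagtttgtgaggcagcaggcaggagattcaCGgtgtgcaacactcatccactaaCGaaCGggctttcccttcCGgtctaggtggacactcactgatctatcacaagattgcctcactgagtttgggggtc

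A shared region covered all 300 bases of the Irf8, E2f2 and Tnfrsf13b windows and 232 bases of the Cd22 window. In the Irf8 window the peaks of all 4 libraries covered all 300 bases. In the E2f2 window peaks covered 256 bases in KO2, 241 in KO3, 300 in WT2 and 115 in WT3. In the Tnfrsf13b window they covered 128 bases in KO2 and 230 in WT2, but 0 in KO3 and 0 in WT3, whose peaks lay elsewhere in the same merged region. Replicate numbers rather than genotypes separated the libraries at this window. The covered Irf8 window is 1 of 2 of that gene and its start lies 2281 bp inside the annotated gene span, and the E2f2 start, also 1 of 2, lies 8508 bp inside. The printed starts of Tnfrsf13b and Cd22 lie 472 and 1314 bp inside their spans, and those of Foxp1 and Bach2 494448 and 179022 bp inside, so the last 2 are internal starts and not the outer ends of these genes. The observed-to-expected CpG ratio was 0.36 in the Irf8 window, 0.31 in E2f2, 0.35 in Tnfrsf13b and 0.20 in Cd22. The Foxp1 window had a ratio of 1.11, with 75.33% G and C, and that of Bach2 0.38. None of the 3 Foxp1 windows and not the single Bach2 window overlapped a shared region, although the gene spans held 93 and 49 of them.

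One library stood apart. KO3 had 268919 autosomal peaks, close to KO2 with 268502, WT2 with 259588 and WT3 with 288705, but its peaks were narrower and lower. Within shared regions the median peak width was 459 bp in KO2, 371 bp in KO3, 428 bp in WT2 and 444 bp in WT3. Peaks covered 92.64% of the shared bases in KO2, 76.28% in KO3, 87.01% in WT2 and 89.77% in WT3. Local background, recovered from the deposited fold enrichment and p-value of each peak and read here as a proxy of depth, was 11.55 reads in KO2, 10.87 in KO3, 8.66 in WT2 and 11.69 in WT3, and how far depth bears on the narrow peaks was not tested. Without KO3 the other 3 libraries shared 221190 regions.

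The shared regions covered 115.9 Mb, which is 69.25% of the bases in union regions and 4.825% of the 2403 Mb spanned by the autosomes. A further 39750 union regions had a peak in 3 libraries, 37443 in 2 and 58459 in 1. The shared set took in 77.07% of the peaks of KO2, 78.18% of KO3, 80.07% of WT2 and 71.92% of WT3. It held between 99.99 and 100% of the strongest 10% of peaks of every library, ranked by deposited fold enrichment. Of the weakest 10% it held 31.04% in KO2, 44.25% in KO3, 37.41% in WT2 and 23.91% in WT3. Membership was chosen by peak presence, so these shares describe the choice and carry no test.

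Shared regions were mostly short and simple. Their median width was 495 bp, with 5th and 95th percentiles of 384 and 967 bp, against medians of 397, 367 and 324 bp for regions with a peak in 3, 2 and 1 libraries. Merging peaks of more libraries can by itself widen a region, and this was not tested. In 199173 of them (96.95%) every library had exactly 1 peak, and there the 4 summits lay within a median range of 51 bp, with 84.72% within 100 bp. The median distance between the summits of a pair of libraries ran from 19 bp, for WT2 and WT3, to 31 bp, for KO2 and KO3. Wide regions were nearly all shared: 8952 of the 9221 union regions of at least 1 kb and all 22 of at least 5 kb. Around the edge of the rule, the lowest fold enrichment among the libraries had a median of 4.635 in members and 3.474 in regions with a peak in 3 libraries, and 10733 members (5.224%) had at least 1 library with a peak below 3-fold.

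**Figure D1:**
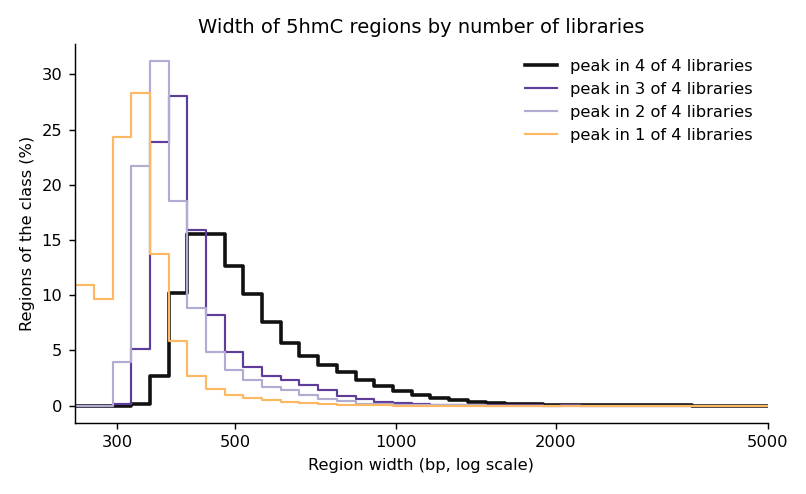
Width of union regions (bp, log scale) as the percentage of regions in each width bin, with 1 line for regions with a peak in 4, 3, 2 or 1 of the 4 libraries. The line of the shared regions is shifted to the right, with a median of 495 bp against 397, 367 and 324 bp, and has the longest tail.

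The widest regions were of 2 kinds. Within the gene Ulk4, a serine/threonine kinase gene on chromosome 9, 1 region ran from 121219853 to 121239709 (19857 bp), and each library had called it as a single peak. Its highest fold enrichment was 14.27 in KO2, 8.87 in KO3, 17.96 in WT2 and 16.13 in WT3. Another, on chromosome 15 from 19708212 to 19718842 (10631 bp), lay outside genes, with Cdh10 the nearest at 692005 bp, and had fold enrichments of 12.99 and 9.44 in the KO and 14.18 and 11.04 in the WT libraries. One more lay in Plcg2, the phospholipase that acts downstream of the B cell receptor, on chromosome 8 from 117510811 to 117519937 (9127 bp), and broke into 4, 7, 2 and 5 peaks in KO2, KO3, WT2 and WT3. The other kind sat at the start of chromosome 9, from 3009098 to 3038427 (29330 bp) and from 2999918 to 3008918 (9001 bp). In the larger of these the fold enrichment was 1.62 and 1.48 in the KO and 1.97 and 1.69 in the WT libraries, which is low, while its pileup was 47.65 to 69.17 times the usual background of its library.

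The regions with the highest fold enrichment in their weakest library were 764 to 1129 bp wide among the top 5. The first lay on chromosome 1 from 70924569 to 70925332, 35630 bp from Vwc2l, with 18.84 and 16.94 in the KO and 23.81 and 18.29 in the WT libraries. The others of the top 5 lay 14897 bp from Cfc1, inside Hivep1, 3772 bp from Slfn8 and inside Ctnna3, and in these 4 the fold enrichment ran from 14.85 to 23.01 over all libraries. WT2 was the highest library in all 5.

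Whole chromosomes had similar densities of shared regions, and windows of 1 Mb differed widely. The density ran from 79.12 per Mb on chromosome 12 to 91.66 per Mb on chromosome 19, and the share of union regions that were shared ran from 58.78% to 61.31% over the 19 chromosomes. The median gap between neighbours was 6947 bp and the largest was 0.4226 Mb. Windows of 1 Mb without any union region were left out beforehand, and each of the 2413 windows kept held shared bases. The median window held 82 shared regions. The median share of bases covered was 4.477%, with 5th and 95th percentiles of 3.06 and 7.81% over these windows. The lowest was 0.0972%, in the last window of chromosome 12, which is not of full length. Coverage reached 13.33% in the window on chromosome 7 from 25000001 to 26000000, which contains the B cell transcription factor gene Pou2f2 among 31 genes. There peaks covered 139552 bases in KO2, 103468 in KO3, 133461 in WT2 and 137175 in WT3. The next windows held Ankrd11, a chromatin regulator gene, on chromosome 8 (12.74%), Shank1, a synaptic scaffold gene, on chromosome 7 (12.69%), the T-box genes Tbx5 and Tbx3 on chromosome 5 (12.52%), and Plcg2 and Cmip on chromosome 8 (11.59%). The T-box window is unlike the others in having only 2 protein-coding genes and 210 shared regions.

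Most shared regions lay outside genes. By midpoint, 35.46% (72848) were inside a protein-coding gene and more than 2 kb from any gene end. Another 5.21% were within 2 kb of a gene end, on either side of it, and 59.33% were outside. The shares inside genes given below leave out the regions near gene ends in the same way. With those counted, 77810 shared regions had their midpoint in a gene. All union regions gave 36.54, 5.72 and 57.75%, and the spanned autosomal genome 37.69, 5.84 and 56.47%, so position relative to genes was close to that of the genome as a whole. Regions with a peak in a single library were inside genes in 38.43% of cases. Among shared regions the share inside genes went up with width: it was 34.07% under 500 bp, 35.61% at 500 to 750 bp, 38.06% at 750 to 1000 bp, 44.81% at 1 to 2 kb and 57.29% at 2 to 5 kb (487 regions). The 22 regions of at least 5 kb broke this order with 31.82%. Without KO3 the share inside genes was 35.75%.

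Gene starts were low in 5hmC peaks. Shared regions covered 3.17% of bases in the 250 bp before 20085 annotated starts and 2.90% in the 250 bp after, against 6.28% between 750 and 1000 bp upstream and 5.41% near 10 kb downstream. In the 250 bp after the start all peaks covered 3.48% in KO2, 2.27% in KO3, 3.15% in WT2 and 3.52% in WT3, so the low value was present in each library. KO3 was the lowest there, as it was along the whole plotted stretch. It was present both for starts with a CpG observed-to-expected ratio of at least 0.6, where shared regions covered 2.40% of the 250 bp after the start, and for those under 0.6, where they covered 3.38%. A shared region overlapped 5.19% of all promoter windows, 4.52% of the CpG-rich and 5.84% of the CpG-poor ones. By number of CG the share was 2.38% in windows with 0, 7.61% with 6 to 9 and 4.04% with 20 to 98. Along 7569 genes of at least 20 kb with a known strand, coverage was highest in the third of 20 equal parts of the span (5.73%) and lowest in the last (2.86%). Among 98 genes of the B cell lists with a promoter entry, the windows of 87 held no shared base and 3 genes had a fully covered window.

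**Figure D2:**
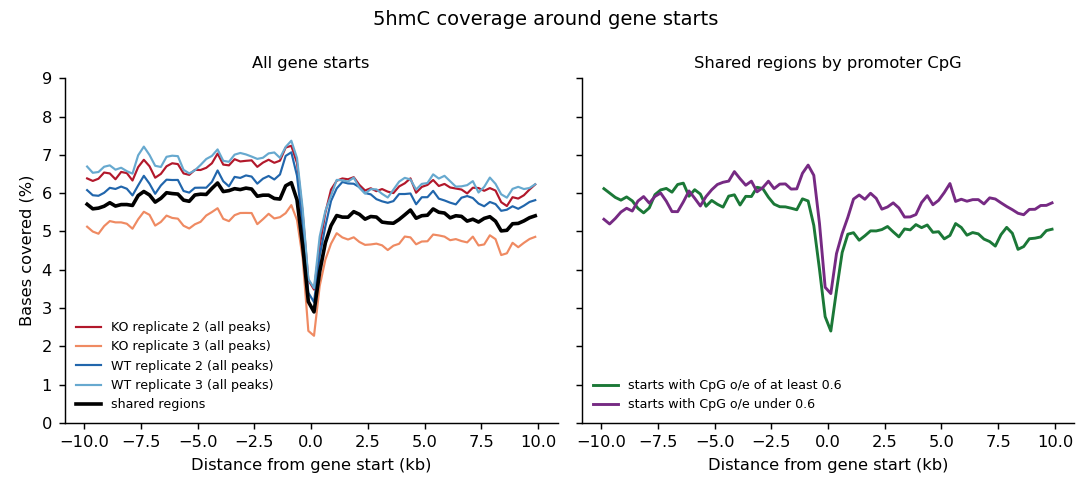
Percentage of bases covered around annotated gene starts in 250 bp bins, plotted against distance from the start (kb): on the left for all starts, with a line for all peaks of each library and a black line for shared regions, on the right for shared regions at starts with a CpG observed-to-expected ratio of at least 0.6 or under 0.6. All lines dip at the start, where shared regions cover 2.90% of the first 250 bp of all genes.

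Of 20665 protein-coding autosomal genes, 13065 (63.22%) carried bases of a shared region, with a median over all genes of 28.31 shared bases per kb of gene span. The genes with most shared bases were long. Rbfox1, a neuronal splicing factor gene of 1528 kb, had the most with 93057 bases in 171 regions. Of the 15 genes with most bases, the next were Dlg2 (synaptic scaffold, 85910), Cdh13 (T-cadherin, 82583), Ptprd (receptor phosphatase, 79459), Lsamp (neuronal adhesion, 78110), Macrod2 (an ADP-ribose hydrolase, 71750) and Pcdh15 (hair cell protocadherin, 71012). They were followed by Ctnna3 (a catenin), Rbms3 (RNA binding), Dpp10 (potassium channel subunit), Lrp1b (lipoprotein receptor family), Foxp1, Sox5 (a SOX transcription factor), Wwox (an oxidoreductase) and Pde4d (a cAMP phosphodiesterase), down to 63608 bases. Per kb of span, 14 of these 15 lay between 33.76 and 73.90. Foxp1, a forkhead factor needed by developing B cells, was the exception with 115.9, and its span of 597.4 kb was the shortest of the 15.

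Per kb of span the order was different. Among the 9576 genes of at least 20 kb, with a median of 39.91 shared bases per kb, Rhoh ranked first with 620.0. It encodes an atypical small GTPase of blood cells and lies on chromosome 5 from 65860742 to 65896700. Peaks covered 514.0 and 400.4 bases per kb of Rhoh in KO2 and KO3, and 574.9 and 509.1 in WT2 and WT3. Irf8 (chromosome 8, 120736358 to 120756694) had 601.3, with 568.6 and 371.0 in the KO and 537.2 and 506.3 in the WT libraries. Chst3, a chondroitin sulfotransferase gene, had 548.3, with 430.7 and 322.5 in the KO and 478.3 and 409.1 in the WT libraries. In these 3 genes KO3 was the lowest library, and KO2 lay within the WT range in Rhoh and Chst3 and above it in Irf8.

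The next 4 genes were Hvcn1, the voltage-gated proton channel (491.2), Apobec3, a cytidine deaminase that restricts retroviruses (410.8), Ikzf3, the lymphoid zinc finger factor Aiolos (390.6), and Tctn1, a ciliary protein gene whose span overlaps Hvcn1 (389.0). They were followed by Ppp1r16b, a regulatory subunit of protein phosphatase 1 (369.9), Bckdha, of branched-chain amino acid breakdown (365.1), and Csk, the kinase that restrains Src family kinases (363.3). The list closed with Pou2f2 (Oct-2, 343.0), Prkcd (protein kinase C delta, 342.0), Grb2 (a signalling adaptor, 341.7), Rnf145 (a ubiquitin ligase, 340.7) and Laptm5 (a lysosomal protein of blood cells, 319.2). KO3 was the lowest library in all 15. The order depended on the height asked of a peak: with only peaks of at least 5-fold enrichment Rhoh still led, with 336.7, but 5 of these 15 genes stayed among the top 15, and Irf8 had 76.36. When the peaks of each library had to cover 50% of a region, 10 of the 15 stayed and Irf8 led, with 488.2 against 453.1 for Rhoh. Irf8 also led without WT2 (581.2 against 564.1) and without WT3 (617.0 against 593.3). Without KO3, 13 of the 15 stayed, and Rhoh had 617.1.

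**Figure D3:**
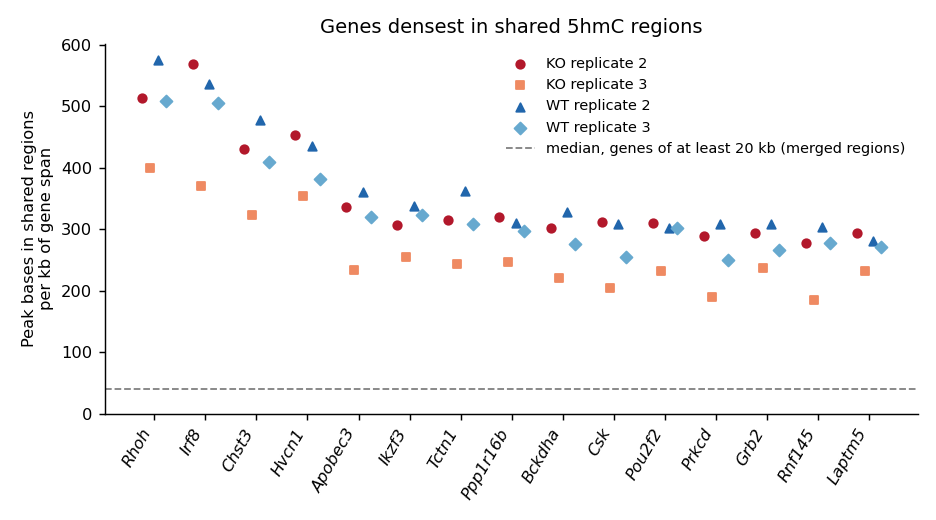
Bases of peaks in shared regions per kb of gene span for the 15 genes of at least 20 kb with the highest density, with 1 symbol per library, and the median of merged shared regions over genes of at least 20 kb as a dashed line (39.91). All symbols lie far above the line, between 184.3 and 574.9, and KO3 is the lowest library in each gene.

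Gene groups differed widely, as described by their median shared bases per kb beside 28.31 for all genes, with 10% of all genes above 107.7. The lists were chosen with earlier results of these data known, so their order is a description and carries no test. The germinal center B cell identity list had the highest median, 181.8, and 34 of its 37 measured genes carried shared regions. That count is near what the length of its genes gives: the median span of the list is 37.13 kb, and 86.31% of all genes of 20 to 50 kb carried a shared region, as did 97.47% of those of 50 to 100 kb. Taken in each library apart, the list median of peak bases per kb was 154.0 and 124.4 in KO2 and KO3 and 158.0 and 143.7 in WT2 and WT3. In this list 27 genes (72.97%) lay above 107.7. Its members with most bases were Foxp1, Bach2 (a repressor of the plasma cell program, 44419 bases) and Ebf1 (an early B cell factor, 36280 bases). Bcl6, the master repressor of the germinal center, had 220.8 per kb in 8 regions. Id3, an inhibitor of E proteins, and Mybl1, a germinal center transcription factor, were among the members that carried none.

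Antigen presentation (median 172.7, 19 of 20 genes, median span 9.237 kb) and B cell receptor signalling (144.4, 28 of 28 genes, median span 76.82 kb) came next. The H2, Tap1, Tap2, Psmb8 and Psmb9 genes of the antigen presentation list lie together on chromosome 17, from 34092379 to 34316674. The 1 Mb window around them was 11.20% covered, against a median of 4.477% over windows, so these genes are not separate loci. The order of the first lists was not stable. With 50% cover by each library the medians were 122.1 for identity, 107.5 for the receptor list and 76.78 for antigen presentation. Antigen presentation was above identity with merging over 100 bp (189.5 against 184.3), with equal peak numbers (160.2 against 151.3) and without KO2, KO3 or WT3. Ciita, the activator of MHC class II genes, had 13283 shared bases, followed by Cd86, a co-stimulatory ligand, and Ctss, a lysosomal protease, while Psmb8, an immunoproteasome subunit, had none. In the receptor pathway Prkcb, which relays the signal to NF-kB, had 41962, Plcg2 35637 and the calcium channel gene Itpr2 34667. The genes of the receptor's own signalling chains were also dense, Cd79a with 710.9 per kb, the highest of the identity list, and Cd79b with 590.3. In Cd79a peaks covered 651.5 and 333.3 bases per kb in KO2 and KO3 and 682.5 and 367.3 in WT2 and WT3, so that the libraries numbered 3 were low in both genotypes.

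The CD40 and NF-kB list had a median of 57.45 with 22 of 26 genes, led by Nfkb1, Traf5 and Cd40, and with none in Bcl2a1a, Map3k7, Nfkb2 and Tnfaip3. The plasma cell list had 57.21 with 11 of 16 genes, led by Zbtb20, Atf6 and Creb3l2, and 5 of its genes carried none: Irf4, a plasma cell transcription factor, Jchain, which joins antibody units, Sdc1, the surface marker CD138, and Mzb1 and Herpud1, of the endoplasmic reticulum. The plasma cell median was 30.28 with equal peak numbers, beside 25.61 for all genes, and 0 with peaks of at least 5-fold. Among enzymes and readers of 5mC and 5hmC the median was 40.08, and 16 of 20 genes carried shared regions, led by Mbd2, Tet3 and Dnmt3a, with none in Dnmt3b, Gadd45b, Mbd3 and Mbd4. Tet2 itself had 4 regions and 26.98 per kb, with 24.58 and 20.46 in the KO and 24.74 and 24.32 in the WT libraries. A deletion of part of the gene would not be read by span coverage, and the genotype labels are not checked by it. Tet3 had 71.70 and Tet1 39.99 per kb.

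The cell cycle and ribosomal protein lists were at the other end, with the Hox list described below. The cell cycle list had a median of 0, with shared regions in 11 of 25 genes, led by the cyclin gene Ccnd3, the kinase gene Cdk6 and E2f2, and with none in 14, among them Mki67, Top2a, Ccnb1 and Cdk1. Of 30 cytosolic ribosomal protein genes only Rpl19 carried a shared region. These genes are short, with a median span of 14.35 kb for the cell cycle and 3.51 kb for the ribosomal list. Of all genes under 10 kb only 24.14% carried a shared region, and the ribosomal list had 3.33%. Of all genes of 10 to 20 kb, the class of the cell cycle median span, 65.23% carried one, and the cell cycle list had 44%. Marker lists of other cells had medians of 56.88 for T cells (17 of 20 genes, with most in Skap1 and Themis, none in Cd8a, Cd8b1 and Il7r), 40.86 for myeloid cells (11 of 18, led by Itgam, Adgre1 and Mertk, none in Cebpa, Cebpe, Csf3r, Elane, Lyz2, S100a8 and Siglec1) and 32.50 for erythroid and megakaryocyte cells (9 of 14, with most in Zfpm1 and Tal1, none in Epor, Gp9, Hba-a1, Klf1 and Pf4). For the defining markers of the labelled cell type, 5 of 6 B cell markers had shared regions, with a median of 155.0 per kb, and 5 of 6 germinal center markers, with 171.5, while 5 of 6 T cell markers had them, with a median of 81.43, 4 of 5 myeloid markers, with 58.43, and 1 of 3 erythroid or megakaryocyte markers, with 0. The B cell and germinal center groups therefore stood above the T cell group in density and not in the number of genes with a region. Peak coverage of DNA does not read expression, and the part of other cells in these values was not tested. The neuronal list had 24 of 25 genes with shared regions, all but Neurod1, and a median of 42.10.

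**Figure D4:**
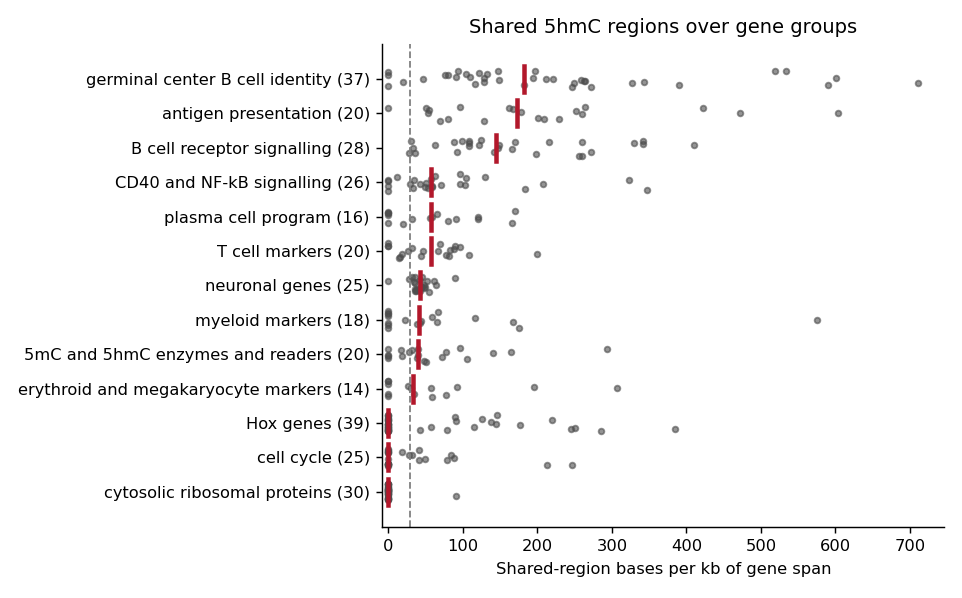
Bases of shared regions per kb of gene span for every measured gene of 13 gene lists (number of genes in parentheses), with 1 point per gene, the list median as a red bar, and the median of all genes (28.31) as a dashed line. The B cell identity, antigen presentation and B cell receptor lists lie to the right, with medians of 181.8, 172.7 and 144.4, and the cell cycle, ribosomal and Hox lists have medians of 0.

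Shared regions in the identity and receptor lists were more often wide than those over all genes, and not taller. Of the 552 shared regions with midpoints in the identity list 25.72% were at least 1 kb wide, as were 20.72% of 502 in the receptor list, against 5.69% of the 77810 in all genes. Less dense lists also had large shares of such regions, the CD40 and NF-kB list 22.47% of 89 and the cell cycle list 18.31% of 71. The median fold enrichment of the identity list regions was 4.86 in KO2, 4.21 in KO3, 5.59 in WT2 and 4.73 in WT3, lower in every library than over all genic shared regions, which had 5.67, 4.80, 6.15 and 5.68. Foxp1 had the most regions of at least 1 kb of any gene, 16, followed by the actin regulator gene Mtss1 and Ppp1r16b with 15 each, Bach2 and Lrch1 with 14 each, and Ebf1 with 12. When only peaks of at least 5-fold enrichment were kept, the list medians were 39.26 for identity, 49.39 for the receptor pathway and 8.17 for antigen presentation, against 18.90 for T cell markers, 20.67 for the neuronal list and 0 for all genes. Without KO3 they were 192.0, 150.0 and 215.0 beside 31.67 for all genes.

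The comparison of genotypes asked whether 5hmC peaks that both genotypes keep were lower in cells without TET2. A shared region has a peak in every library by its choice, so loss of a whole peak cannot be seen here, only a change of height. The median of the highest fold enrichment per region was 5.82 in KO2, 4.89 in KO3, 6.29 in WT2 and 5.80 in WT3. KO3 was the lowest, and KO2 lay just above WT3, so the genotypes overlapped. The KO mean was 5.35 and the WT mean 6.04, a difference of -0.69 (exact two-sided permutation test, p = 0.667, where 2 libraries against 2 cannot go below 0.333). Without KO3 the difference was -0.23, and without KO2 it was -1.16 (exact p = 1 and 0.333).

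Region heights were shared across libraries to a similar degree within and between genotypes. Over the 205439 regions, the log2 fold enrichments of KO2 and WT2 had a Pearson correlation of 0.88, those of KO2 and WT3 0.87, and those of the pair of WT libraries 0.85. The pairs with KO3 had 0.79 each, that with KO2 included. These correlations describe regions that share the genome's sequence and mappability.

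After each library was centred on its own median, limma called 0 of the 205439 regions different between KO and WT at an adjusted p of 0.05 (0%, over all of them), with 7671 regions (3.73%) at an unadjusted p under 0.05. In simulated data this fit recovered 1% of regions changed by 0.5 on the log2 scale and 79% of those changed by 1. Smaller changes can therefore go uncalled. Centring takes out a shift of -0.18 on the log2 scale, KO minus WT, over all regions. Without it, limma called 12 regions, all lower in KO. On pileups recovered from the deposited values it called 5, of which 3 were higher and 2 lower in KO. The count turned on single libraries: it was 1824 without KO2 (1720 lower and 104 higher in KO), 6 without KO3, 1 without WT3 and 0 without WT2, where a genotype left with a single library was assumed to vary like the other. None of the regions named next passed the test in the fit of all 4 libraries, where every adjusted p was 1.

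The smallest p in the direction of lower in KO belonged to a region 2616 bp from Cldn1, a tight junction gene, on chromosome 16 from 26374456 to 26374998. Its fold enrichment was 5.04 and 3.62 in KO2 and KO3, and 9.63 and 9.77 in WT2 and WT3, without overlap (difference of -1.003 on the log2 scale, SE 0.18, limma adjusted p = 1). After centring, both KO libraries lay below both WT libraries in 13.51% of the shared regions without an entry in the authors' WT-higher table, described below. The share was 27.05% in those with an entry, so such separation was common. The next 4 in that direction lay near Olfm1, in Vwa3b, near Mtss1 and near Smpdl3b, with differences of -0.996 to -1.12. In the other direction a region 53651 bp from Mecom, a haematopoietic transcription factor gene, on chromosome 3 from 29897127 to 29897644, had 6.93 and 5.31 in the KO and 3.74 and 3.58 in the WT libraries (log2 difference 0.91, SE 0.19, limma adjusted p = 1). The others lay near Pvrig, in St3gal4, in Ulk2 and near Eif2b2, with differences of 0.88 to 0.97.

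Averaged over genes, there were again no calls. Of 6962 genes with at least 3 shared regions, limma called 0 (0% of those tested), and 256 (3.68%) had an unadjusted p under 0.05. The count was also 0 under each alternative run, with any 1 library left out among them. Values per gene are means of centred log2 fold enrichment over its shared regions. Gpnmb, a transmembrane glycoprotein gene, had -0.14 and -0.20 in KO2 and KO3 and 0.19 and 0.27 in WT2 and WT3 over 3 regions. Dnmt1, the maintenance DNA methyltransferase gene, had -0.23 and -0.28 in the KO and 0.12 and 0.08 in the WT libraries over 3 regions (difference -0.35, SE 0.07, limma adjusted p = 1). Both KO libraries lay below both WT libraries in these 2 genes, as in Gm6034, Stra8 and Limk1, the others with the smallest p in that direction. A choice by smallest p favours genes with such separation, and its share over all tested genes was not counted.

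Samhd1, a dNTP hydrolase gene, had 0.05 and 0.12 in the KO and -0.22 and -0.34 in the WT libraries over 4 regions (difference 0.37, SE 0.08, limma adjusted p = 1). Slk, a kinase gene, had the largest positive difference of the genes named by smallest p, 0.47, followed in size by Unc93a, Samhd1, Iqcb1 and Trip11. On the centred values the larger gene lists had similar numbers of genes in both directions. Of the 29 genes tested in the identity list 15 were lower and 14 higher in KO, with a median difference of -0.002, and of 25 in the receptor list 12 were lower and 13 higher, with a median of 0.002, beside 50.4% lower and a median of -0.001 over all 6962 genes. The neuronal list had 10 lower and 13 higher, and the Hox list, with 4 genes tested, 1 lower and 3 higher. None of them was called. Without centring 97.37% of the 6962 genes were lower in KO, with a median of -0.18, so these counts are relative to each library's own median.

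The authors' deposited tables of differential regions list 24503 autosomal regions as higher in WT and 41 as higher in KO. Of the WT-higher regions 19298 (78.76%) overlapped a shared region, and 4 of the KO-higher ones did. A listed WT-higher region lay in 18904 shared regions (9.20%), against 6.71% of all autosomal union regions and 4.29, 2.90 and 2.02% of those with a peak in 3, 2 and 1 libraries. The share went up with width, being 3.87% under 500 bp, 27.11% at 1 to 2 kb and 46.00% at 2 to 5 kb. It was 29.53% in the identity list and 19.32% in the receptor list, beside 9.94% of all genic shared regions. The antigen presentation list had 8.64% and the cell cycle list 19.72%. All of these lists held more regions of at least 1 kb than the 5.69% over all genes. The shares of such regions were 25.72% for identity, 20.72% for the receptor list, 17.28% for antigen presentation and 18.31% for the cell cycle. How far width bears on the list shares was not tested. Shared regions with a WT-higher entry had a median centred log2 difference of -0.12, with 77.49% lower in KO, and those without one 0.01, with 47.40% lower. The entries were listed by the authors as higher in WT. If they were chosen on these libraries, which is not stated, the difference restates that choice. The tables hold no values per library. In Foxp1 29 of 93 shared regions held an entry, in Rhoh 10 of 13, and in Bcl6 0 of 8.

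**Figure D5:**
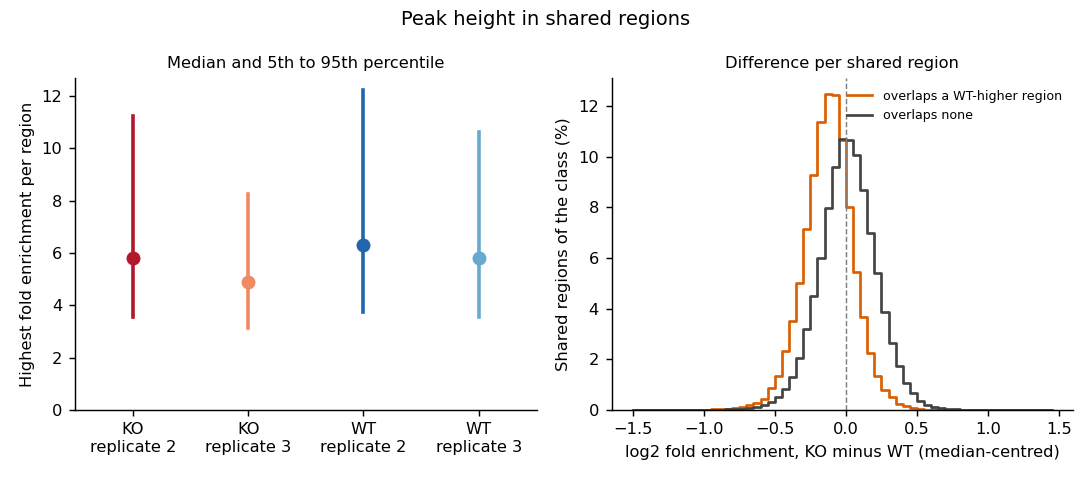
Left, the highest fold enrichment per shared region in each library, with the median as a point and the 5th to 95th percentile as a line; right, the percentage of shared regions by log2 fold enrichment, KO minus WT, after median centring, for regions with and without an entry in the authors' deposited WT-higher table. KO3 has the lowest median, 4.89, and the regions with an entry are shifted to the left, with a median of -0.12 against 0.01.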

How the data were processed

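MACS2 2.1.0.20151222, BWA 0.7.12-r1039 and the build GRCm38.p3 are named in the submitters' processing notes; the settings and the control used for each peak call are not given in the sources used here. The authors deposited 1 peak list per pull-down library, so replicates were not pooled. In each deposited list the height of a peak is a fold enrichment (a ratio to the caller's local background), beside a −log10 p-value and −log10 q-value and a score that follows from the −log10 q. The scale of the score in the authors' deposited tables of differential regions, and the libraries behind it, are not stated. Read counts per library are not given in the sources used here. Pileup and background were recovered from the deposited fold and −log10 p of each peak under a Poisson test, to within 0.001 of the deposited −log10 p.

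The members and gene lists were chosen with earlier results of these data known. A region's value in a library was its highest fold enrichment, on the log2 scale, centred on the library median. Regions, and genes with at least 3 shared regions, were tested with limma 3.58.1 (trend and robust, R 4.3.3; genotype only) and Benjamini-Hochberg adjustment, threshold 0.05, and library medians with an exact permutation test. The fits were tested on data simulated from the fitted means and variances, with 200 features changed. Of those changed by 0.5 on the log2 scale, the region fit recovered 1% and the gene fit 98.5%. Of those changed by 1, the region fit recovered 79% and the gene fit 100%.

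Gene spans and promoter windows came from RefSeq tables of GRCm38.p6, which keeps GRCm38.p3 positions on primary chromosomes. The span table has no exons, so exons and introns were not told apart, and 16457 of 20665 genes (79.64%) matched a promoter entry. The named genes are the 15 with most shared bases, the 15 densest of at least 20 kb, the first 3 and the empty members of each list (empty cell cycle and ribosomal genes by count), and the 5 features of smallest p in each direction; the named regions and windows are the 5 widest, strongest and fullest. Genes outside this rule (Bcl6, Cd79a, Cd79b, Tet1, Tet2, and those with most wide regions) were chosen for their role or after their values were seen. Alternatives were a 5-fold minimum, 50% cover by each library, merging over 100 bp, equal peak numbers (259588 each), other filters and scalings, a replicate block, and each library left out. The labels do not say whether replicate numbers pair the libraries. The correlation of same-numbered deviations was 0.08 over regions and 0.03 over genes, which with so few libraries cannot settle it. Sex chromosomes were left out, and a few genes that the rule names are not reported here. Python 3.11.15 with pandas 2.3.3 was used.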

Additional observations from a re-analysis of the deposited data

How the results depend on the processing

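The number of shared regions was 84794 when only peaks of at least 5-fold enrichment were kept, with a median width of 554 bp and 33.95% inside genes. It stayed between 197348 and 221190 when each library had to cover 50% of a region, when peaks up to 100 bp apart were merged, with equal peak numbers and without any 1 library. The share inside genes and more than 2 kb from a gene end was 35.11% with 50% cover and 34.98% with equal peak numbers. It was 35.44 to 35.75% without each library in turn. When the whole gene and 2 kb on both sides counted as the gene, the share was 40.67%. Regions called between KO and WT numbered 0 in the fit as described, 12 without centring, 5 on recovered pileups, and 0 to 1824 without each library in turn, the highest without KO2. With the replicate block, which pairs libraries by their replicate number, the counts were 0 regions and 0 genes. Among the differences of the named regions and genes, no alternative changed the sign. The median centred difference, near 0, did change sign without KO3: it was 0.02 over regions and 0.01 over genes, against -0.0008 and -0.0007 with all libraries. The first place by density passed between Rhoh and Irf8, and between the identity and antigen presentation lists. The library median difference kept its sign, from -0.23 to -1.16 without 1 library. Peak lists hold no regions below the caller's threshold, so a region missed in 1 library is not known to lack 5hmC there. Depth is known only as the recovered background of 8.66 to 11.69 reads.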

Other observations

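The share of miRNA hairpins with a shared region was low, and how that of Hox genes reads depends on the genes set beside it. Of 919 miRNA hairpins in the RefSeq table, 26 (2.83%) overlapped a shared region and 17 lay fully within one, beside 4.825% of autosomal bases in shared regions. Among them were the hairpins of Mir146b, a regulator of NF-kB signalling (chromosome 19, 46342762 to 46342870), Mir484 (chromosome 16), and both copies of Mir138 (chromosomes 8 and 9). These were picked out after the values were seen. Of 39 autosomal Hox genes, the homeobox factors of body patterning, 16 (41.03%) carried shared regions, beside 63.22% of all genes. Their median span was 3.737 kb, and 24.14% of all genes under 10 kb carried a shared region. Hoxb3 led with 3673 bases in 7 regions, followed by Hoxa3 with 2521 and Hoxc4 with 2146. The median over the list was 0, while 28.21% of the list lay above 107.7 per kb, beside 10% of all genes.

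Among windows of 1 Mb with a union region, those with the lowest coverage were mostly the incomplete last windows of chromosomes. Coverage was divided by the full 1 Mb in these as well. The lowest, on chromosome 12 from 120000001 to 121000000, held 2 shared regions of 4 union regions and 1 protein-coding gene, Tmem196. The next lay on chromosome 2 from 182000001 (2 regions), chromosome 8 from 129000001 (11 regions), chromosome 16 from 98000001 (10 regions) and chromosome 2 from 176000001 (14 regions, with the zinc finger genes Zfp967 and Zfp973). All of these but the window from 176000001 are the last of their chromosome and run past its end. The low coverage and few genes of such last windows are therefore not comparable with those of full windows. Gaps in the assembly and repeats in these windows were not measured. Peaks over a background of more than 10 times the usual one numbered 36 in KO2, 71 in KO3, 49 in WT2 and 40 in WT3. Of these, 30, 63, 29 and 33 lay in shared regions, with median fold enrichments of 1.65, 1.41, 1.97 and 1.62 in the same order.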
